A study of Mus musculus with 4 samples.

Results

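The genes described here are 10 mouse genes at small imprinted loci that stand alone or as gene and host pairs: Plagl1, Impact, Mcts2, H13, Nnat, Blcap, Peg13, Trappc9, Zrsr1 and Commd1. They were measured at every CpG cytosine within 2 kb of any RefSeq transcription start site (TSS) of the gene that had 10 reads or more in every mouse, which gave 384 of the 1276684 such cytosines of the series. The data are enhanced reduced representation bisulfite sequencing (ERRBS) of total liver from 4 male mice on a normal diet, aged 6 to 8 weeks. The DNA is cut by MspI, whose site is CCGG, and the authors describe ERRBS as combining MspI with the enzyme TaqαI. After bisulfite treatment a methylated cytosine is read as C and an unmethylated one as T. Mixed-1 and Mixed-2 had an undefined mixed background that includes C57BL/6J and other strains, and B6-1 and B6-2 were C57BL/6 (Black-6) mice. Values of a strain are given below in the order of these numbers. Each mouse was 1 library, and as each strain was kept at an institution of its own, housing and strain cannot be told apart. The labels name no altered gene and no treatment in either strain. ERRBS does not separate methylated from hydroxymethylated cytosine, and a read of these files does not say from which parent its chromosome came.

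An imprinted gene is expressed from the chromosome of 1 parent only. The choice is set by a differentially methylated region (DMR) that carries methylation from the egg or the sperm and keeps it in the tissues of the offspring, so that a tissue holds methylated and unmethylated copies side by side. The loci here are known for a DMR that is methylated on the maternal chromosome, while Plagl1, Impact and the intronic genes are transcribed from the paternal one. Plagl1 encodes a zinc finger transcription factor, and Impact encodes a regulator of the kinase GCN2. Mcts2 and Zrsr1 are retrogenes, copies of spliced transcripts of the X-linked genes Mcts1 and Zrsr2 that landed in an intron of H13 and of Commd1. Nnat, which encodes a small membrane protein of brain and endocrine cells, lies in an intron of Blcap, and the noncoding RNA Peg13 lies in an intron of Trappc9.

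The following stretches of the reference show where these levels were read. Each is the window of at most 180 bases with the most measured CpGs of the locus, outside annotated UTRs, and capitals mark the CpGs measured in all 4 mice. The build is mm10 (GRCm38.p6, sequence of RefSeq), and every one of the 1276597 common cytosines on its assembled chromosomes fell on a CpG. The first 5 windows come from the imprinted genes themselves: Plagl1 (chr10:13091025-13091204, plus strand, intron 1), Mcts2 (chr2:152686801-152686980, plus strand, upstream of its start and in an intron of H13), Nnat (chr2:157560299-157560478, plus strand), Peg13 (chr15:72809680-72809859, minus strand) and Zrsr1 (chr11:22971861-22972000, plus strand, ending 5 bases before its start). The last 2 windows come from the promoters of hosts, Blcap (chr2:157566033-157566212, minus strand) and Trappc9 (chr15:73060614-73060793, minus strand), and are shown because their CpGs hold almost no methylation; the first has 20 CpGs and the second 11.
Plagl1: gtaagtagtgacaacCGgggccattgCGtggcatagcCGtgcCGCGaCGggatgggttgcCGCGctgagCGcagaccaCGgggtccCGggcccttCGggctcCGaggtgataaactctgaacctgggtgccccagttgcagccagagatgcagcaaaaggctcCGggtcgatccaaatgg
Mcts2: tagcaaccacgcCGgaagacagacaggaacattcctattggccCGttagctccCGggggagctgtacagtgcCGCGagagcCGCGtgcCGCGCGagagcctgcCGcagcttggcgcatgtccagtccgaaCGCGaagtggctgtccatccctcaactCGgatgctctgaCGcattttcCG
Nnat: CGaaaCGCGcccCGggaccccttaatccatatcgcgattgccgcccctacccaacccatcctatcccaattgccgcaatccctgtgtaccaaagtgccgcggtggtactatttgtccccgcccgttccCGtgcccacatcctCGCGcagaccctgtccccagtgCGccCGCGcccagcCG
Peg13: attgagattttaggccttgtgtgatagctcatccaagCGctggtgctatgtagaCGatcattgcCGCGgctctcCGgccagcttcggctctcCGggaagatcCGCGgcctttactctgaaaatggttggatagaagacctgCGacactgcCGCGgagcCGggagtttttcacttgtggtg
Zrsr1: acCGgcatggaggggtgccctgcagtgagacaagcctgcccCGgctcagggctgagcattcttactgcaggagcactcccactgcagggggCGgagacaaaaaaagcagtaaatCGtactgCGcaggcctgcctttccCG
Blcap promoter: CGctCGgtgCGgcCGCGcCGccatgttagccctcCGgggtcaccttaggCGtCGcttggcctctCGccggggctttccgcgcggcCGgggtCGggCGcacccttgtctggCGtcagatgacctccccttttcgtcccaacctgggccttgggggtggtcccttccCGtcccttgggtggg
Trappc9 promoter: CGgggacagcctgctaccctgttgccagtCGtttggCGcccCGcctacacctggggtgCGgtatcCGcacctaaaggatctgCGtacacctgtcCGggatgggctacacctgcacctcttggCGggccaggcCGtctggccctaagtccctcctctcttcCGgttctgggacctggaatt

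In these windows the mean level over the mice was 43.3% ± 3.66 (SD, n = 4) at Plagl1, 42.3% ± 6.66 at Mcts2, 44.9% ± 3.10 at Nnat, 43.6% ± 5.35 at Peg13 and 47.0% ± 3.47 at Zrsr1. The windows of the Blcap and Trappc9 promoters stood at 0.110% ± 0.127 and 0.355% ± 0.245. The Mcts2 window had 19 CpGs and the Blcap promoter window had 20, so windows of like CpG content gave either an intermediate level or almost none.

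The libraries differed in depth. The total coverage over the cytosines of a mouse ran from 60654199 to 99215153 reads and the mean coverage of a site from 44.2 to 63.7, with the higher values in both B6 mice, so neither can depth and strain. At the genes described, a single site had between 10 and 219 reads in a mouse. PCR copies were not marked in the files, so all intervals cover counting error only. Of 15 marker promoters chosen for the liver label, 6 had common sites, and these did not include those of Alb, Apob or Ttr. The promoter of the hepatocyte gene Apoa2 stood at 0.651% and that of Hnf4a at 28.7%, while that of the leukocyte gene Spi1 stood at 77.7%. The endothelial promoters were split, with 1.71% at Kdr and 88.6% at the only site of Pecam1.

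Plagl1 was intermediate throughout the part of its promoter that was covered. All 62 sites within 2 kb of its start had a mean between 20% and 80% over the mice, here called intermediate, and the level was 44.1% and 41.0% in the mixed mice and 42.4% and 39.2% in the B6 mice. The mice lay within a few points of each other, and the strains overlapped. The mean was 41.7% ± 2.06 (SD, n = 4), and the difference between the strain means was 1.77 points (two-sided exact permutation test, p = 0.667, where 2 mice against 2 cannot go below 0.333). The same start serves Hymai, a noncoding RNA of this promoter, whose reads cannot be separated from those of Plagl1 in a DNA assay.

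The Plagl1 stretch ran over 425 bp (chr10:13090765-13091189), from 67 bp before the start to 357 bp after it, over exon 1 and the beginning of intron 1. A stretch was the longest run of intermediate sites within 10 kb of a start, with at most 2 other sites and at most 2 kb between neighbors. All 43 CpGs of this stretch were measured. The lowest site mean was 31.1% and the highest 54.6%, and the run had the same length in each mouse. The nearest covered sites outside it lay 9765 bp before and 17240 bp after it, with means of 98.6% and 67.6%. No common site lay in the sequence between, so the ends of the stretch are those of the coverage. The site after the stretch was itself in the intermediate range.

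Impact had an intermediate stretch at its curated starts and no intermediate site within 2 kb of a predicted one. The 26 sites within 2 kb of the start at 12971923 on chromosome 18 stood at 43.9% and 44.1% in the mixed mice and 42.3% and 40.7% in the B6 mice. All 26 were intermediate, and the mean was 42.7% ± 1.58 (SD, n = 4). They formed a stretch of 1309 bp (chr18:12972198-12973506) that began 275 bp inside the gene and covered the end of exon 1 and part of intron 1. The stretch was not read throughout: it held a gap of 891 bp between covered sites, and 23 of its 51 CpGs were measured. Its strain means differed by 2.48 points, with both B6 mice below both mixed mice (exact permutation p = 0.333, the smallest possible). A predicted transcript starts about 17 kb upstream, at 12954690. Its 10 sites, none of them within 1 kb of that start, stood at 0.124%, 3.81%, 3.78% and 3.69% in the same order of mice. The window over all starts of Impact mixed both kinds of site, which is why its mean was only 31.7% ± 1.02. The nearest covered sites lay 16266 bp before the stretch, at 3.99%, and 14988 bp after it, at 98.0%. The ends of the stretch are thus those of the coverage.

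**Figure D1:**
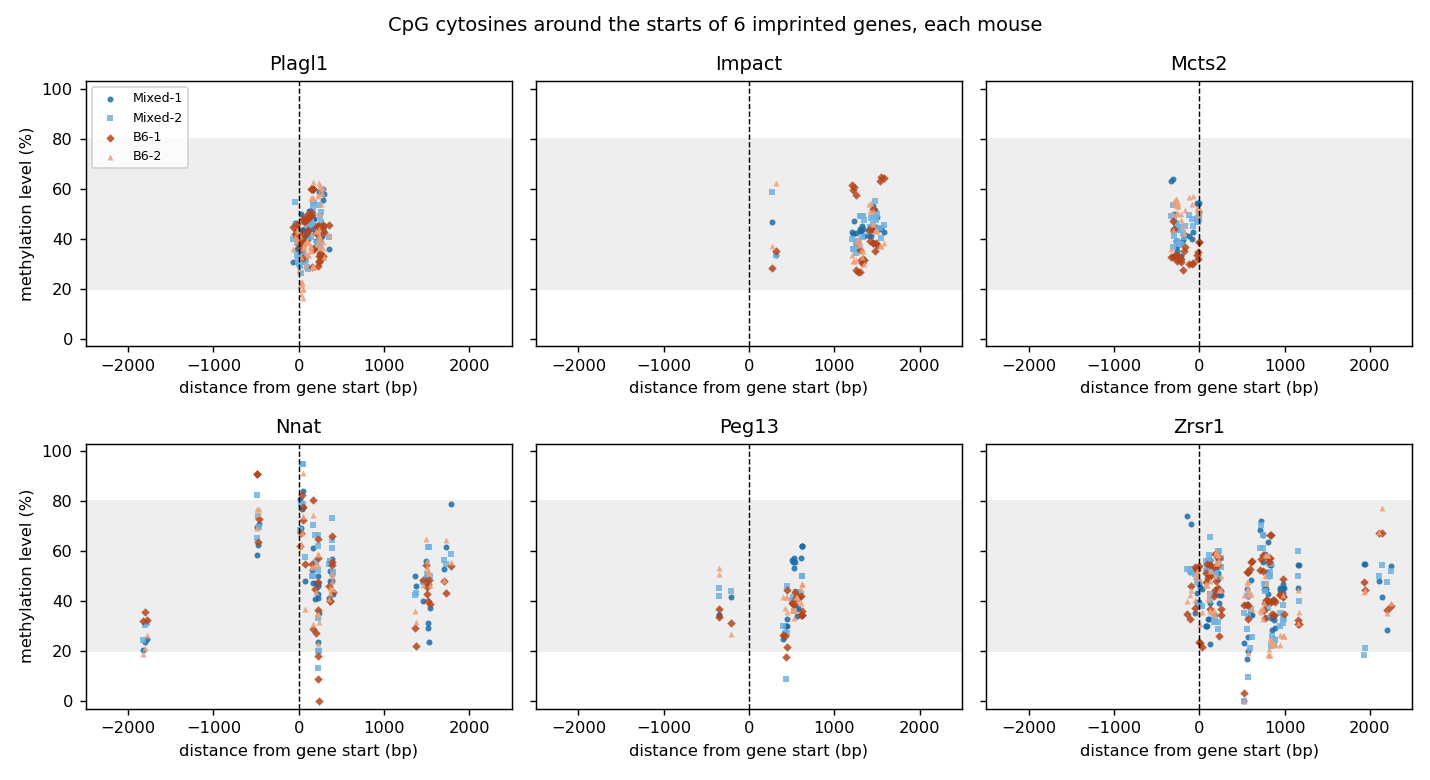
Methylation level (%, y axis) of each common CpG cytosine against its distance in bp from the most upstream curated start of the gene (dashed line; x axis, positive into the gene), 1 point per site and mouse, with the range of 20 to 80% shaded. Most points lie in the shaded range, in short clusters of covered sites, and 30 of the 1048 points lie outside it: 15 at Nnat, 11 at Zrsr1 and 2 each at Plagl1 and Peg13.

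Mcts2, the retrogene copy of the translation factor gene Mcts1, was intermediate in its promoter, and it was the gene at which the mice lay furthest apart. Its 26 sites stood at 43.8% and 44.7% in the mixed mice and 33.7% and 51.1% in the B6 mice, a mean of 43.3% ± 7.16 (SD, n = 4). The mixed mice were close to each other and fell between the B6 mice, so the strain means differed by only 1.87 points (exact permutation p = 1). The 26 sites formed a stretch of 337 bp (chr2:152686813-152687149) that ended 1 bp after the start of Mcts2, in intron 4 of H13. All 26 site means lay between 38.1% and 48.2%. The nearest covered sites lay 5948 bp before the stretch, at 81.2%, and 6828 bp after it, at 98.0%, so its ends are those of the coverage.

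Neighboring sites are often read by the same reads, so the stretch was also divided into blocks of sites on 1 strand within 50 bases. B6-2 lay above B6-1 in all 6 blocks of Mcts2. In the largest block, of 8 sites, the level was 37.1% and 42.9% in the mixed mice and 32.6% and 53.5% in the B6 mice. From each block 1 cytosine was counted, the one with the highest minimum coverage over the mice. Its reads were summed over the blocks, so deep blocks weigh more. In these sums, 32.8% of 458 reads were methylated in B6-1 (95% Wilson interval 28.6 to 37.2) and 52.4% of 357 reads in B6-2 (47.2 to 57.5). These intervals did not overlap, although both mice belong to the inbred strain. The intervals of the B6 mice were also apart at Zrsr1, with B6-1 the higher there (39.9 to 44.6, against 33.7 to 38.3 in B6-2), and overlapped at the other 4 stretches. No other stretch had B6-2 above B6-1 in every block. B6-2 was above in 10 of 26 blocks at Zrsr1, so the direction there was mixed, and in 1 of 12 at Plagl1.

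H13, the host of Mcts2, encodes a signal peptide peptidase. Its promoter was covered by only 2 sites common to all mice, which stood at 0% and 0% in the mixed mice and 4.17% and 0% in the B6 mice. B6-1 had 5 methylated reads of 92, and the other mice had none of 91, 105 and 101, which allows a share of up to 3.30% in the shallowest of them. With every site of a mouse that had 10 reads, common or not, the H13 promoter had 7 sites in each B6 mouse, at 1.19% and 0%. The level of Mcts2 minus that of the H13 promoter was 43.8, 44.7, 29.6 and 51.1 points, a mean of 42.3 ± 9.07 (SD, n = 4), with Mcts2 higher in 4 of 4 mice (exact sign-flip permutation test, two-sided, p = 0.13, the smallest that 4 mice allow). The 3 other sites in the window of H13, at a predicted start, were methylated at 88.7% ± 3.55, so the window mean of 53.6% ± 1.55 over all 5 sites described no intermediate site: none of the 5 was intermediate.

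Nnat had the highest level of the intronic genes and the least even profile. Its 45 sites stood at 50.0% and 55.5% in the mixed mice and 49.2% and 51.0% in the B6 mice, a mean of 51.4% ± 2.81 (SD, n = 4). Mixed-2 was the highest mouse, and the strains overlapped (difference of strain means 2.59 points, exact permutation p = 0.667). The stretch spanned 3604 bp (chr2:157558256-157561859), from 1822 bp before the start to 1781 bp after it, nearly all of it in intron 1 of Blcap with 72 bp in exon 2. Of its 45 sites, 41 were intermediate. Its covered parts were separated by gaps of up to 1281 bp, and 41 of its 134 CpGs were measured.

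Along Nnat, the block furthest upstream had 23.1% and 28.9% in the mixed mice and 33.5% and 22.3% in the B6 mice. The block of 6 sites that begins just after the start had 72.8%, 78.9%, 69.5% and 65.8% in the same order. The block just upstream of the start, of 4 sites, had 65.3% and 72.8% in the mixed mice and 79.5% and 74.5% in the B6 mice. Both of these blocks were thus above the furthest one in every mouse, and neither was the higher in all mice. The 4 sites outside the bounds included cytosines at 157560114 (mean 80.4%) and 157560124 (85.6%) on the forward strand and one at 157560305 on the reverse strand (17.2%), which lies in the Nnat sequence printed above. At the 4 CpGs of this stretch measured on both strands, the forward cytosine was higher by 5.16, 31.3, 31.0 and 22.9 points in the 4 mice, a mean of 22.6 ± 12.3 (SD, n = 4). At Plagl1 the same difference was 2.46 ± 6.71 points over 19 CpGs and at Zrsr1 -0.263 ± 3.19 over 22. The median coverage of these Nnat cytosines was 21.5 reads on the forward and 17 on the reverse strand, and the part of coverage in the difference was not tested.

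Blcap, the host of Nnat and named for a link to bladder cancer, had an unmethylated promoter. All 45 of its sites lay under 20%, and its level was 0.0823% and 0.420% in the mixed mice and 0.102% and 0.0954% in the B6 mice. At 36 of the sites no mouse had a methylated read. Nnat minus the Blcap promoter came to 49.9, 55.1, 49.1 and 51.0 points, a mean of 51.3 ± 2.65 (SD, n = 4; higher in 4 of 4 mice, exact sign-flip p = 0.13). The starts of both genes are 6283 bp apart. The first covered site past the Nnat stretch on the Blcap side came after 3836 bp and was at 0%, and the first one on the other side came after 3317 bp and was at 94.1%.

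**Figure D2:**
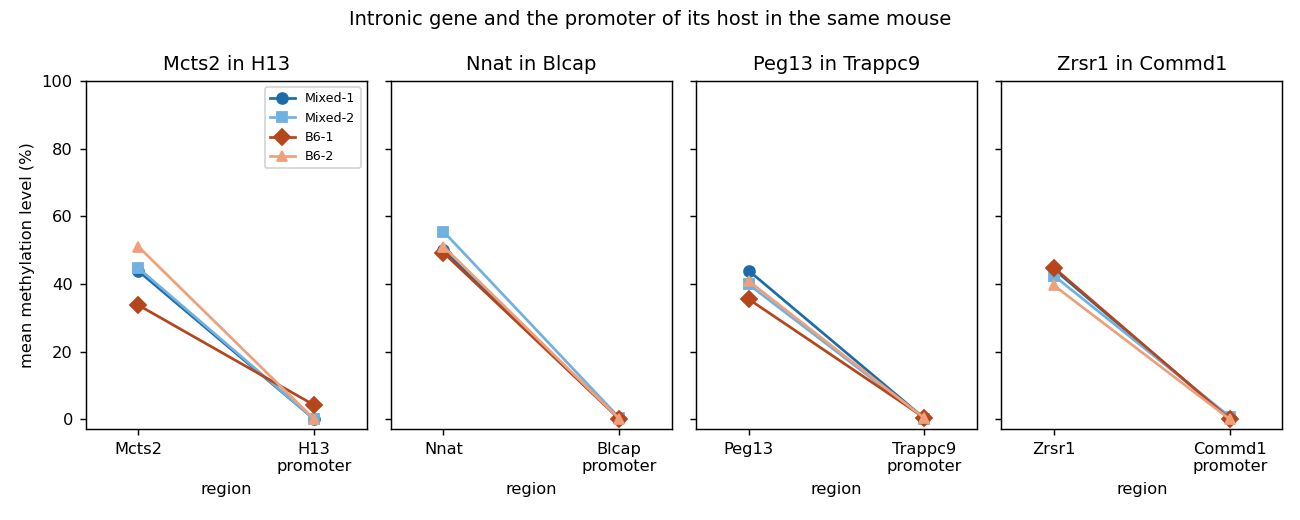
Mean methylation level (%, y axis) of the intronic gene (sites within 2 kb of its start) and of the promoter of its host (sites within 1 kb of the most upstream curated start; both on the x axis), 1 line per mouse, for the 4 pairs. Every line falls from an intermediate level to one under 5%, and the lines of the strains overlap.

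Peg13 in Trappc9 showed the same arrangement over a far longer host. The 21 sites of Peg13 stood at 43.9% and 39.8% in the mixed mice and 35.5% and 40.9% in the B6 mice, a mean of 40.0% ± 3.49 (SD, n = 4), and all were intermediate. The strain means differed by 3.71 points with overlap between the strains (exact permutation p = 0.667). The stretch ran over 977 bp (chr15:72809700-72810676), from 352 bp before the start of Peg13 to 624 bp after it. Gaps between its covered sites reached 615 bp, and 19 of its 54 CpGs were measured. The nearest covered sites were methylated on both sides, at 90.6% after 4503 bp and at 88.3% after 21994 bp.

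Trappc9 encodes a subunit of a vesicle tethering complex. Its 44 promoter sites stood at 0.211% and 0.115% in the mixed mice and 0.418% and 0.249% in the B6 mice, and every site lay under 20%. Both B6 mice were above both mixed mice, but by a difference of strain means of only -0.170 points (mixed minus B6; exact permutation p = 0.333). The 4 mice had 4, 3, 14 and 11 methylated reads of 2523, 2860, 3789 and 3932. Peg13 minus the Trappc9 promoter was 43.7, 39.7, 35.1 and 40.6 points, a mean of 39.8 ± 3.57 (SD, n = 4; higher in 4 of 4 mice, exact sign-flip p = 0.13). Between both lay 250880 bp with 77 further sites, whose mean was 85.3% ± 0.158, and 65 of them were above 80%. Along all of Trappc9, 92 of the 115 sites outside its promoter and the Peg13 window were above 80%, 18 were intermediate and 5 were under 20%. The body of Trappc9 was thus mostly methylated around an intermediate stretch, with an unmethylated promoter at its head. Of the neighbors of this locus, the potassium channel gene Kcnk9 stood at 3.26%, Chrac1 at 0.119% and Ago2 at 0.284%.

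Zrsr1, the retrogene copy of the splicing factor gene Zrsr2, had the most intermediate sites of the intronic genes. Of its 78 sites 77 were intermediate, and the level was 44.4% and 42.4% in the mixed mice and 44.8% and 39.6% in the B6 mice, a mean of 42.8% ± 2.38 (SD, n = 4). B6-1 was the highest mouse and B6-2 the lowest, so the strains overlapped (difference 1.21 points, exact permutation p = 1). The stretch spanned 2391 bp (chr11:22971863-22974253) in intron 1 of Commd1, from 142 bp before the start of Zrsr1 to 2248 bp after it, with 81 of 82 sites intermediate. The exception was the reverse cytosine at 22972535, at 0.807%, which lies inside a CCGG, the site of MspI. Its values were 0% in 3 mice and 3.23% in B6-1, with 31 to 45 reads. Gaps between covered sites of the stretch reached 765 bp, and 60 of its 126 CpGs were measured. The nearest covered sites lay 111214 bp before it, at 3.57%, and 7883 bp after it, at 0%, so its ends are those of the coverage.

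Commd1, the host of Zrsr1, encodes a protein of copper transport and NF-kB regulation. A short curated transcript of Commd1 starts inside the stretch, at 22972866 and on the strand opposite to Zrsr1, so all 78 sites of Zrsr1 are also among the 100 of Commd1. The window mean of Commd1, 35.4% ± 1.75, is therefore mostly a measure of the Zrsr1 stretch. At the main promoter, 18 sites stood at 0.214% and 0.766% in the mixed mice and 0.0772% and 0% in the B6 mice. Zrsr1 minus this promoter was 44.1, 41.7, 44.7 and 39.6 points, a mean of 42.5 ± 2.38 (SD, n = 4; higher in 4 of 4 mice, exact sign-flip p = 0.13).

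**Figure D3:**
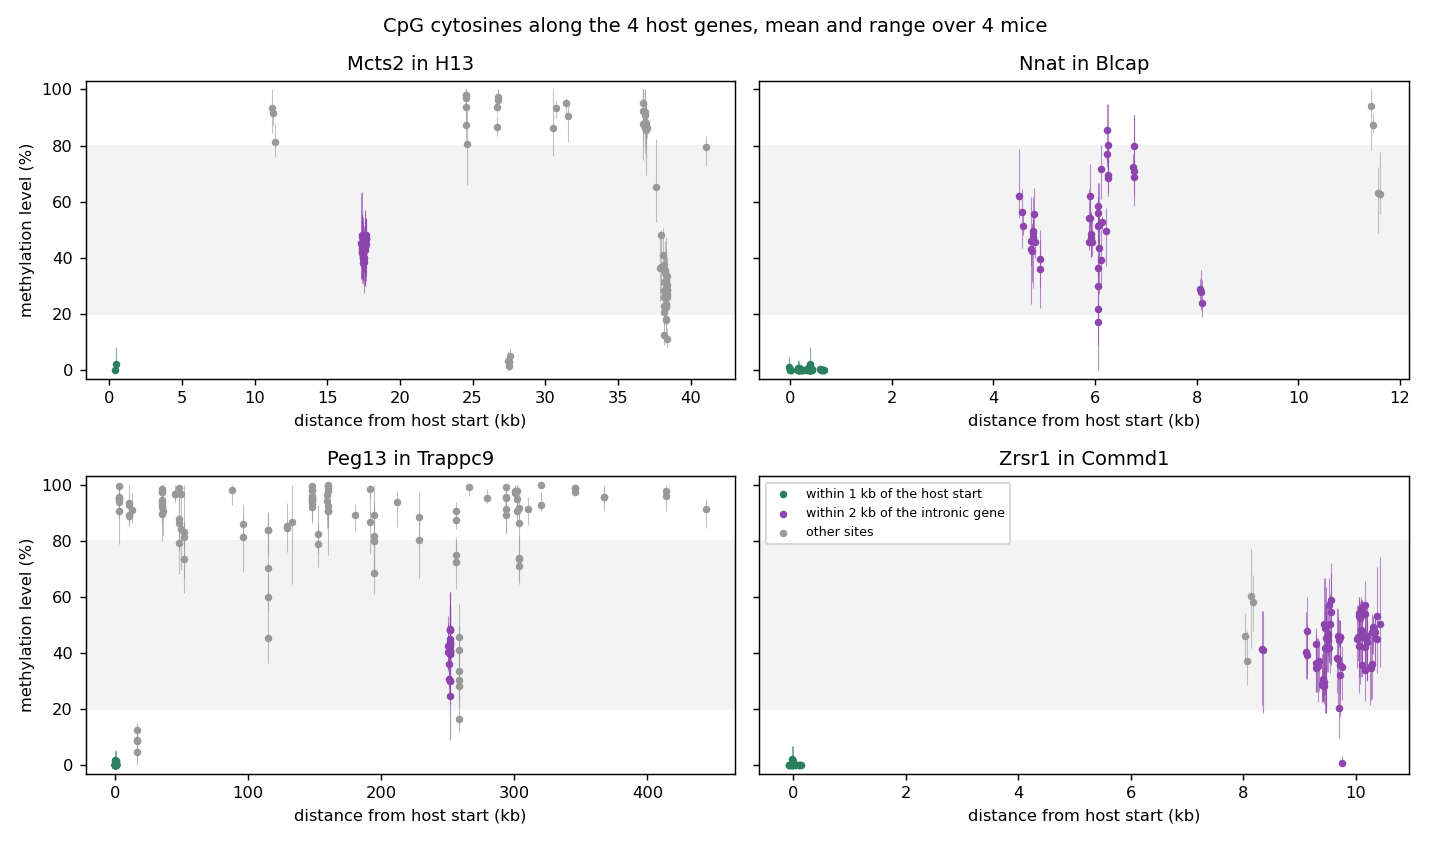
Methylation level (%, y axis) of the common CpG cytosines along H13, Blcap, Trappc9 and Commd1 against the distance from the host start in kb (x axis), each point the mean and each vertical line the range over the 4 mice. Green points (host promoter) lie near 0, purple points (within 2 kb of the intronic gene) mostly between 20% and 80%, and most gray points of Trappc9 above 80% (92 of 115), while those of H13 also form a run near 38.2 kb that reaches down to 10.9%.

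The host bodies held further runs of sites that were not fully methylated. These were looked for after the levels along the hosts had been seen, as runs of at least 4 sites at or below 80% away from the host promoter and the intronic gene. The longest lay in an exon of H13 near its end, over 782 bp (chr2:152707056-152707837), 19.9 kb from Mcts2. Its 34 sites stood at 29.3% and 30.8% in the mixed mice and 29.2% and 29.9% in the B6 mice, a mean of 29.8% ± 0.720 (SD, n = 4), and 30 were intermediate. In Trappc9, 6 sites over 155 bp (chr15:72802532-72802686), 7.64 kb beyond Peg13, stood at 29.7%, 31.2%, 32.6% and 36.7%, a mean of 32.6% ± 3.03. Neither run is at a start of the annotation, the nearest being that of Mcts2 and of Peg13. Runs of 5 sites in H13 (3.18% ± 1.60) and of 4 sites in Trappc9 (8.84% ± 1.66) were nearly unmethylated. Near Trappc9 a lone intermediate site, 7246 bp before its start, stood at 71.1% ± 9.08 and was the only one within 10 kb of its starts.

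The X-linked source genes of the retrogenes were unmethylated. The 6 sites of Mcts1 stood at 0.538% and 0% in the mixed mice and 0% and 1.04% in the B6 mice, and the 28 sites of Zrsr2 at 0.197% and 0.119%, and 0% and 0%. Their means, 0.395% ± 0.500 and 0.0789% ± 0.0965 (SD, n = 4), stood against 43.3% and 42.8% at the copies. Male mice inherit a single X chromosome, so these values come from the X of 1 parent.

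The intermediate stretches were not all richer in CpGs than the covered promoters of other genes. In 1 kb around the middle of each, the count of CpGs was 78 at Plagl1, 35 at Impact, 63 at Mcts2, 73 at Nnat, 54 at Peg13 and 61 at Zrsr1, against a median of 66 over 16595 promoters of the same length. Those promoters are curated starts with at least 5 common sites in the 1 kb, so promoters with fewer covered sites are not among them. TGCCGC, the motif of the zinc finger protein ZFP57 that maintains imprints in the early embryo, was searched on both strands. It occurred 6 times at Plagl1 and at Nnat, 5 times at Peg13, 3 times at Mcts2 and 2 times at Impact and at Zrsr1. Each of the 4 host promoters had 1, Mcts1 had 0 and Zrsr2 had 1. Of the 16595 covered promoters 52.3% held at least 1, with a median of 1, and 0.163% held 6 or more, 0.675% 5 or more, 6.91% 3 or more and 20.2% 2 or more. The counts at Plagl1, Nnat and Peg13 were thus rare among these covered promoters and those at Impact and Zrsr1 were not. Within the stretches themselves the motif occurred 23 times, without overlap between matches. The CpG of 11 of these was measured, and its 13 cytosines had means from 35.5% to 69.7%. A stretch is defined by its intermediate sites, so these levels say nothing about the motif itself. In the Plagl1 sequence printed above both matches hold a measured CpG, and in that of Nnat none of the 3 does.

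In order of level the 6 stretches were Nnat (51.4%), Mcts2 (43.3%), Zrsr1 (43.2%), Impact (42.7%), Plagl1 (41.7%) and Peg13 (40.0%). Neighbors in this order differed by less than their SD over the mice, except that Nnat stood above Mcts2 by more than either SD, with 1 mouse of Mcts2 inside the range of Nnat.

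Set against all genes, a window mean from 20% to 80% was reached by 8 of the 10 genes, while 12.5% of the 18783 genes with at least 5 common sites had one. Of the 10 genes, 7 had most of their sites intermediate, against 5.96% of all genes. Both counts include Commd1, whose window holds all 78 sites of Zrsr1, so they are not counts of separate loci. The 8 also include H13, none of whose 5 sites was intermediate. Blcap and Trappc9 lay among the 66.7% of genes whose mean was under 5%. Among 17 other imprinted genes with enough sites, 14 had a mean from 20% to 80% and 13 had mostly intermediate sites. The highest of these were Meg3 (62.0%) and Nap1l5 (60.6%), and the lowest were Rasgrf1 (1.63%) and Dlk1 (2.10%), which have their known DMRs away from the starts used here.

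**Figure D4:**
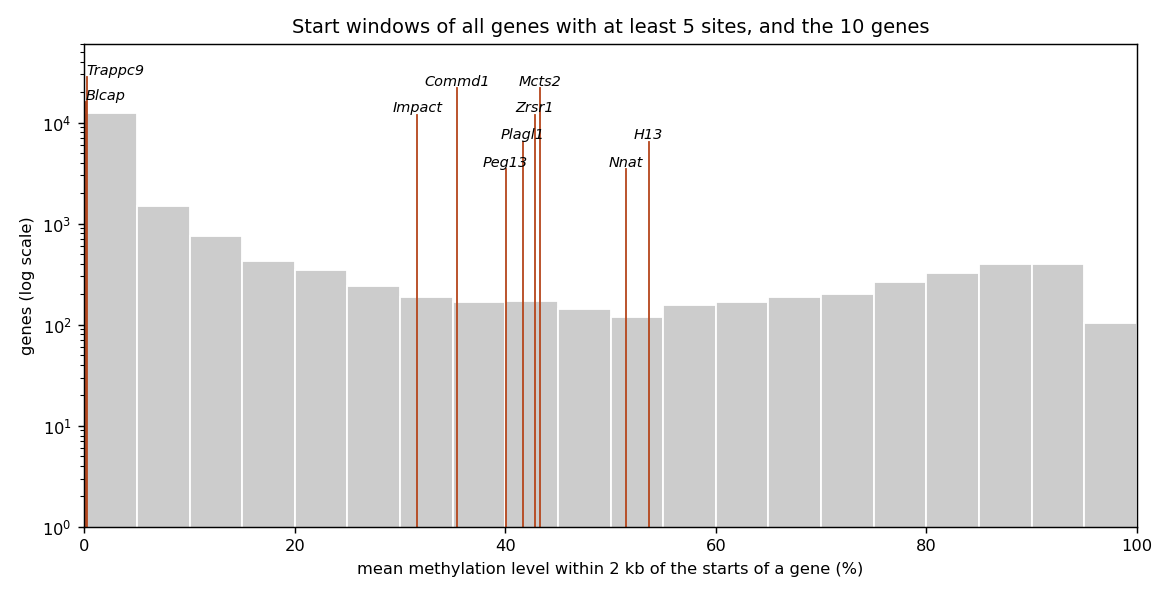
Number of genes (y axis, log scale) by the mean methylation level within 2 kb of their starts (x axis, %, bins of 5 points) for the 18783 genes with at least 5 common sites, with red lines at the 10 genes described. Blcap and Trappc9 fall in the tall lowest bin of 12520 genes, and the other 8 lie between 31.7% and 53.6%, where each bin holds few genes. The highest, H13, has no intermediate site, and Commd1 holds all sites of Zrsr1.

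The intermediate sites of these genes lay closer to the middle of the scale than intermediate sites elsewhere. Of the 257 intermediate sites of the 10 genes, 168 (65.4%) lay between 30% and 70% in all 4 mice. The share was 22.7% of 148060 intermediate sites outside the start windows of these and the other listed imprinted genes. It was 48.8% of 496 in the other imprinted genes and 2.66% of all common sites. The median SD over the mice was 8.33 points in the first set and 8.47 in the second, so the sets were alike in that spread. The centers were a median of 43.6% at these genes and 62.4% elsewhere. These sites share reads and loci and are not independent, so no test was made. By the share of sites between 30% and 70% in all mice, the genes most like them among 13434 with at least 20 sites were Fut11 (67.0% of 118 sites), Gm30189 (64.3% of 56), Gm30177 (62.5% of 24), Gm30513 and Gm36063 (55.0% of 20 each).

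Between the strains, the logistic model and limma called no site and no window of these genes, and Fisher's exact test called no site. The logistic model per site with moderated overdispersion called 0 of the 384 sites at an adjusted p under 0.01 and a difference of at least 25 points, where 0.0065% of all common sites were called. At an unadjusted p under 0.05 it had 5 of the 384, against 2.03% of all sites and 5.71% of all intermediate ones. Limma on log2 ratios called 0 and had 47 at an unadjusted p under 0.05, against 14.7% of all sites and 7.49% of the intermediate ones. Fisher's exact test on pooled reads called 0 and had 27, against 5.31% and 15.2%. The largest difference of any site was at 22971863 on chromosome 11, the first site of the Zrsr1 stretch and the first CpG of its printed sequence, at 74.1% and 52.8% in the mixed mice and 35.0% and 40.0% in the B6 mice. This is 25.9 points between strain means, on 20 to 36 reads per mouse (logistic model, adjusted p = 1). At Mcts2 the largest was 21.8 points and at Plagl1 19.3 points, both with an adjusted p of 1. It was 19.9 points at Impact, 18.8 at Nnat and 15.2 at Peg13. At the hosts it was -6.99 points at H13, 4.17 at Blcap and -3.74 at Trappc9 (mixed minus B6), while Commd1 shares the site of Zrsr1. Among intermediate sites the strains did not overlap at 24 of 62 of Plagl1, 14 of 26 of Impact, 3 of 26 of Mcts2, 15 of 41 of Nnat, 7 of 21 of Peg13 and 28 of 77 of Zrsr1. In all this was 91 of 253 (36.0%), while it was 35.3% of all intermediate sites of the series.

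On reads summed over each window, 0 of the 10 genes were called at an adjusted p under 0.05, as was the case for all 18783 genes (0.0%), by the logistic model and by limma alike. At an unadjusted p under 0.05 stood H13 and Commd1, 2 of 10, against 9.8% of all genes. H13 had an adjusted p of 0.134, with a difference of -26.4 points on pooled reads beside which the coverage was unequal: its methylated site at 152680865 had 34 and 25 reads in the mixed mice and 109 and 106 in the B6 mice, and the mean over sites differed by only -0.734 points. Commd1 had an adjusted p of 0.350 and a difference of 3.23 points on pooled reads. Coverage was unequal here too: its unmethylated main promoter had 929 and 904 reads in the mixed mice and 2498 and 1638 in the B6 mice. The mean over sites of its window differed by only 0.763 points. Fisher's exact test on the summed reads of each strain, which takes no account of the spread between mice, called 3 of the 10 (H13, Commd1 and Nnat) and 4369 of all windows.

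**Figure D5:**
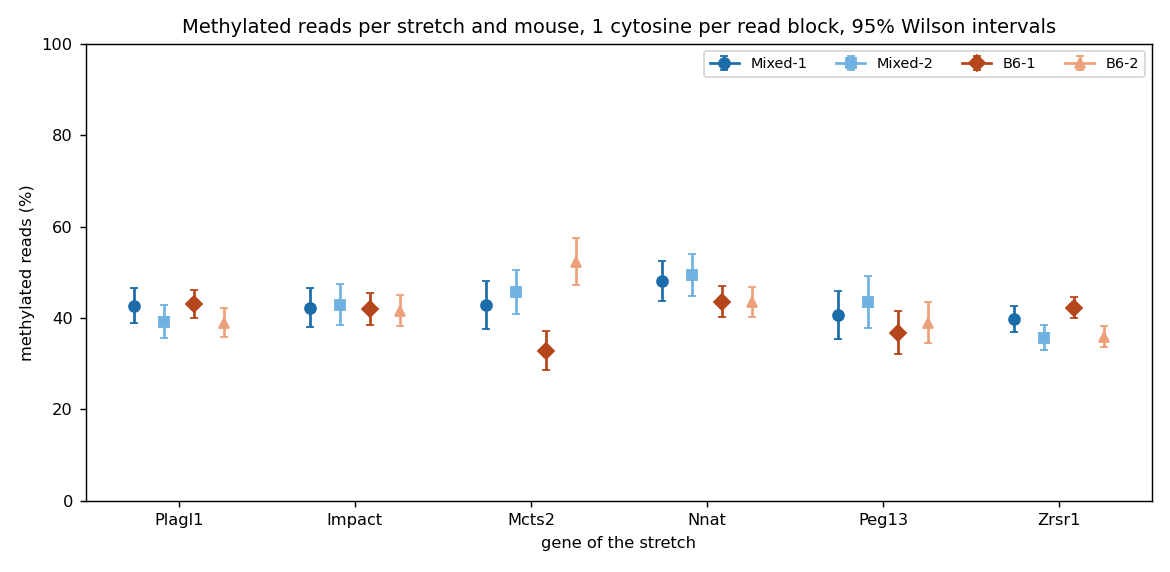
Share of methylated reads (%, y axis) in each mouse at the 6 intermediate stretches (x axis), counted at 1 cytosine per block of sites that share reads, with 95% Wilson intervals as error bars. All 24 values lie between 32.8% and 52.4%, and the lowest and the highest are both at Mcts2, in B6-1 and B6-2.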

How the data were processed

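ERRBS libraries of liver DNA from 4 male mice, 2 per strain, were grouped by the labels. The authors mapped single-end reads to mm10 with BSMAP (the submitters' processing notes list Bismark and SAMtools, with no versions). The authors deposited for each CpG cytosine and strand the coverage as a read count of at least 10, not normalized, and the percent of reads that were C and T. Methylated reads were the percent times the coverage, rounded.

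Common cytosines were those in all 4 files. Levels are means of site percentages, RefSeq starts and sequences came from GRCm38.p6, and sequence on chromosome 18 is not printed. The genes, lists and rules were chosen with earlier results of these data known. All members and the 2 X-linked source genes were named. So were the extreme 2 at either end of the other imprinted genes and the 5 most similar genes. The largest strain difference of a site was given per gene. Nespas was not found under that name in the annotation used.

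Strains were compared per site, and per gene with at least 5 sites, by a quasi-binomial logistic model, with overdispersion moderated by limma 3.58.1 (R 4.3.3, and its data.table package), kept at 1 or above, and Benjamini-Hochberg adjustment over all features. The prior was estimated from features with a mean of 5 to 95% and not from all, because many unmethylated features had no deviance. In the fits with 1 residual degree of freedom (replicate block, a mouse left out) the prior degrees of freedom of the 4-mouse fit were kept. Simulated data had 200 features changed by 50 points among 100000 sites and among 18783 genes. The site model recovered 81% of these and the gene model 88%, with 0 and 2 false calls. The simulated spread between mice was a fixed setting and not estimated from these data. Smaller changes were not simulated, so the recovery of differences as small as those reported here was not tested. Other values came from Python 3.11.15, numpy 2.4.6, pandas 2.3.3, scipy 1.17.1 and matplotlib 3.10.9. The labels number the mice within a strain; deviations of same-numbered mice were not related (correlation -0.000207 over all common sites, 0.0299 over the member sites), so the numbers were not taken as pairs. Alternatives were a minimum of 20 reads, a coverage ceiling at the 99.9th percentile, merged strands, curated starts, windows of 1 kb, pooled reads, other bounds, other tests, a replicate block and leaving out each mouse. Using all sites of each mouse was added after the data had been seen. The value of 1 marker promoter is not reported here.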

Additional observations from a re-analysis of the deposited data

Results flagged for a closer look

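Values of 1 mouse that lay far from the other 3 were looked for by Dixon's test in 34 sets of levels, and 5 were found. Chance gives about 1 in 20 only for independent sets with a normal spread, which these are not. H13 and Blcap each entered more than once, and where 3 mice stand at 0% the other is flagged whatever its level. Within 2 kb of the predicted start of Impact, Mixed-1 stood at 0.124% while the other mice lay between 3.69% and 3.81%. At the 2 sites of the H13 promoter, as its start cluster and as the host promoter, B6-1 stood at 4.17% and the others at 0%. At Blcap, whose window and host promoter hold the same sites, Mixed-2 stood at 0.420% and the others between 0.0823% and 0.102%. All of these are levels under 5%, and none of the intermediate stretches was found in this way, Mcts2 included.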

How the results depend on the processing

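With 2 mice per strain no permutation test of a strain difference can pass 0.05, and sites under 10 reads or outside the enriched fragments were not seen, so stretch ends and the H13 promoter (2 sites) are limits of coverage. Mcts2, Nnat, Peg13 and Zrsr1 stayed above the host promoter in all 44 alternatives. No alternative called a site of the 10 genes. The count over all common sites was 83, and it was 149 with the replicate block, 38 to 227 with 1 mouse left out (182 without Mixed-1, 227 without Mixed-2, 38 without B6-1 and 41 without B6-2), 0 by limma, 1612 by Fisher's exact test and 259 at 10 points and an adjusted p under 0.05. Of the gene windows, 0 of the 10 were called except 3 by Fisher's exact test on pooled reads, which leaves the spread between mice out by construction, and the replicate block changed no call; over all genes 2 were called without Mixed-1 and 21 without Mixed-2.

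Of 120 strain differences of windows recomputed, 14 changed sign, none of them called. Impact came to -3.41 points with a window of 1 kb and -2.15 with pooled reads, Zrsr1 to -1.07 with a minimum of 20 reads and -0.0684 with pooled reads, Blcap to -0.0333 and Commd1 to -0.995 with a minimum of 20 reads, and H13 to 18.7 with all sites of each mouse, which differ in number (9, 5, 14 and 14). With 1 mouse left out the difference ranged from -6.79 to 10.5 points at Mcts2, -2.39 to 0.922 at H13, -0.182 to 5.35 at Nnat, -0.0163 to 0.321 at Blcap, -1.41 to 3.82 at Zrsr1 and -1.24 to 2.76 at Commd1. The cause of these changes was not tested. Of 110 window levels 13 moved by more than the SD over mice, among them Impact to 42.7% and H13 to 1.04% with curated starts only. With bounds of 30 and 70% the stretch of Nnat shortened to 1713 bp and that of Zrsr1 to 1307 bp, and with no site outside the bounds to 1554 and 1689 bp. The other 4 kept their length under both, and a minimum of 20 reads gave 377 bp at Plagl1.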
